A study of Mus musculus with 24 samples.

Results

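The transcripts examined in the mouse brain were those of 10 genes of feeding control: the peptide genes Npy, Agrp, Hcrt, Pmch, Cartpt, Trh and Cck and the receptor genes Lepr, Mc4r and Npy1r. Members were all probe sets that the array's annotation gives to 1 of these genes and to no other gene. A probe set is a group of short oligonucleotides on the array that together read 1 transcript. Of the 10 genes, 8 had such a probe set, and they were read by 12 of the 45037 non-control probe sets on the array, which read 18193 genes by probe sets of their own. Lepr had 4 probe sets, Npy1r had 2, and the remaining 6 genes had 1 each. Agrp and Mc4r were not analysed here. Of the 12 probe sets, 7 had a mean log2 level at or above the median of all probe sets, 4.07, whereas the 4 of Lepr and 1 of Npy1r lay below it.

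Food intake is set in large part by neurons of the hypothalamus. Arcuate neurons that make neuropeptide Y and agouti related peptide drive feeding, their neighbours that make the CART peptide restrain it, and both kinds of neuron carry the receptor for leptin, the hormone with which fat tissue reports its stores. Neurons of the lateral hypothalamus make orexin (the product of Hcrt) or melanin concentrating hormone (the product of Pmch), each in cells of its own. Several of these peptides are not confined to the hypothalamus: Npy is made in interneurons, and Cck in pyramidal cells and interneurons, of the cortex and hippocampus.

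The arrays came from the right cerebral hemisphere of 24 female NMR-1 mice, 6 for each of 4 diets, which began the diets at 8 weeks of age and kept to them for 2 weeks. The diets were the chimpanzee diet of vegetables, fruit and yogurt ("Chimpanzee"), cooked cafeteria meals ("HumanCafe"), fast food ("FastFood"), and the standard mouse pellets on which the mice had been raised ("Pellet"). The labels name no altered gene and no drug in any group. Each mouse gave 1 array, and RNA was processed in 2 batches with 3 mice of each diet. Littermates were spread over the diets. The labels name no brain region below the hemisphere, so that in these samples fewer cells of a type and less RNA per cell cannot be told apart. Neuronal transcripts were abundant in the hemisphere samples, with a mean log2 level of 11.68 for Snap25 (a synaptic vesicle fusion protein) and of 9.16 for Slc17a7 (the vesicular glutamate transporter of cortical neurons).

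Array medians lay between 4.02 and 4.32 on the log2 scale. On the chimpanzee, cafeteria and fast food arrays the SD of all levels on an array was 1.81 to 2.02 in labelled batch 1 and 2.01 to 2.06 in batch 2. On the pellet arrays it was 1.95 to 2.04 in batch 1 and 1.58 to 1.85 in batch 2. Chimpanzee batch 1 replicate 1 had 2.02. The part of this spread in the levels of bright transcripts was not tested beyond the repeat of quantile normalization given below. The pellet array of labelled batch 2 replicate 1 stood apart, with a median correlation of 0.892 with the other arrays against 0.98 to 0.993 for the remaining 23, and values are given without it where it mattered. The study's methods left out 1 pellet sample for RNA degradation, and since neither they nor the labels say which, all 24 arrays were kept. The Gapdh control probe set of the 3′ end exceeded that of the 5′ end by 0.06 on pellet batch 2 replicate 1. On pellet batch 2 replicate 3 it did so by 0.13, the most of all arrays. For Actb these differences were 0.42 and 0.64, and the largest was 0.68 on cafeteria batch 2 replicate 3. Which sample was degraded was not tested. The cafeteria array of batch 1 replicate 1 had log2 levels of 11.28 for Prl and 10.47 for Pomc, hormone transcripts of the pituitary, whereas the next highest Prl level was 7.98. On the chimpanzee, cafeteria and fast food arrays 18S ribosomal RNA was higher in labelled batch 1 (5.87 to 6.58) than in batch 2 (4.88 to 5.15), but on the pellet arrays it was lower in batch 1 (4.96 to 5.51) than in batch 2 (5.92 to 6.42). Whether the pellet arrays carry exchanged batch labels was not tested beyond a fit with these labels exchanged. In that fit 0 probe sets passed the test of a diet by batch interaction, against 31.5% as labelled. Batch results are therefore given over the 18 other arrays first.

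The promoters of the members that varied together between arrays are shown here, since the sections that follow turn on these genes: Pmch, Hcrt and Cartpt, and beside them Npy and Cck. Each sequence holds the 250 bases before the RefSeq start of the gene in GRCm38.p6, read 5′ to 3′ on the strand of the gene. The windows are chr10:88090822-88091071 on the plus strand for Pmch, chr11:100762932-100763181 on the minus strand for Hcrt, chr13:99900684-99900933 on the minus strand for Cartpt, chr6:49822460-49822709 on the plus strand for Npy, and chr9:121495695-121495944 on the minus strand for Cck. The Cartpt window lies before the start given in the promoter table, inside the longer annotated span of the gene. Capitals mark exact matches to 4 motifs: the TATA box TATAAA on the strand of the gene, and on either strand the cAMP response element TGACGTCA, the STAT site TTCNNNGAA and the E-box CACGTG.
Pmch: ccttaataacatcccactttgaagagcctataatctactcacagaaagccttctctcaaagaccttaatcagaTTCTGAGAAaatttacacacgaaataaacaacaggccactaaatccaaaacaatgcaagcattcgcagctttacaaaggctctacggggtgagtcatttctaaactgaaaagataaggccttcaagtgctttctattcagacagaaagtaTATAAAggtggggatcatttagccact
Hcrt: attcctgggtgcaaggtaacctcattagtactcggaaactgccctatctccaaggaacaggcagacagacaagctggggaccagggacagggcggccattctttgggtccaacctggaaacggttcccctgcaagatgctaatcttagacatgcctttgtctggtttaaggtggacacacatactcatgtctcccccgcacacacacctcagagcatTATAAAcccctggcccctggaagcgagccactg
Cartpt: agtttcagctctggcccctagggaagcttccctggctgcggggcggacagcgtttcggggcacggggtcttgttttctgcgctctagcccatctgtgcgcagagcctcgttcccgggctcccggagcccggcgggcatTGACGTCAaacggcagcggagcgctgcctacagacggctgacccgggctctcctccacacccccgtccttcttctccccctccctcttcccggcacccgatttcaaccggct
Npy: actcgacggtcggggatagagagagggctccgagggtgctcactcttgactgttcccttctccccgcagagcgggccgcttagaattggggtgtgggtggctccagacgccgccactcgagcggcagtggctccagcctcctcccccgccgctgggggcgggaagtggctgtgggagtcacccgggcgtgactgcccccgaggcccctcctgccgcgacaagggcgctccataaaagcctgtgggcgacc
Cck: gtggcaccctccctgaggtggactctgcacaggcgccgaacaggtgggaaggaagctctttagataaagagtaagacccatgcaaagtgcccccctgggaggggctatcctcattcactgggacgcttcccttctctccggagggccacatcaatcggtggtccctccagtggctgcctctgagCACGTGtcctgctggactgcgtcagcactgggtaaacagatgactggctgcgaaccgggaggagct

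The Pmch window held a TATA box that begins 27 bases before the start of the gene and a STAT site that begins 177 bases before it. The Hcrt window held a TATA box 33 bases before the start. Cartpt had a cAMP response element 112 bases before its start, and Cck had an E-box 66 bases before its start. The Npy window held none of the 4 motifs. No marked matches overlapped. Among 32851 promoter windows of the same length, 7.59% held the TATA box, 1.55% the cAMP response element, 7.02% the STAT site and 6.02% the E-box. Pmch and Hcrt shared the TATA box, and Cartpt shared none of the 4 motifs with them. A match is a description of these letters only.

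The diets were first compared for the 12 member probe sets. No member probe set passed in any comparison of diets by limma with batch as a term, at an adjusted p under 0.05 over all 45037 probe sets. In the test of all 4 diets 0 of the 12 passed, where 0.0222% of all probe sets passed; 1 member had an unadjusted p under 0.05, against 2446 of all probe sets. In the comparison of the human diets (the mean of cafeteria and fast food) with the chimpanzee diet 0 of 12 passed, where 0% of all probe sets passed; 1 member and 937 of all probe sets had an unadjusted p under 0.05. The methods' two-way test of diet and batch, run on the 25987 probe sets without a diet by batch interaction, left 8 of the member probe sets, of which 0 reached an unadjusted p of 0.01, against 373 of all those left.

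Between pairs of diets 0 of 12 members passed in each of the 6 comparisons. The share of all probe sets that passed was 0% for cafeteria against chimpanzee (817 with an unadjusted p under 0.05, 1 of them a member), 0% for fast food against chimpanzee (990, with 0 members), and 0% for fast food against cafeteria (790, with 1 member). It was 0.00222% for pellet against chimpanzee (4254, with 1 member), 0% for pellet against cafeteria (2384, with 0 members) and 0.0222% for pellet against fast food (8568, with 0 members). The lowest adjusted p of any member over the 6 pairs was 0.271, for the dimmer Npy1r probe set in pellet against fast food, so that in none of the members did neighbours in the order of the diets differ beyond their spread by this test.

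**Figure D1:**
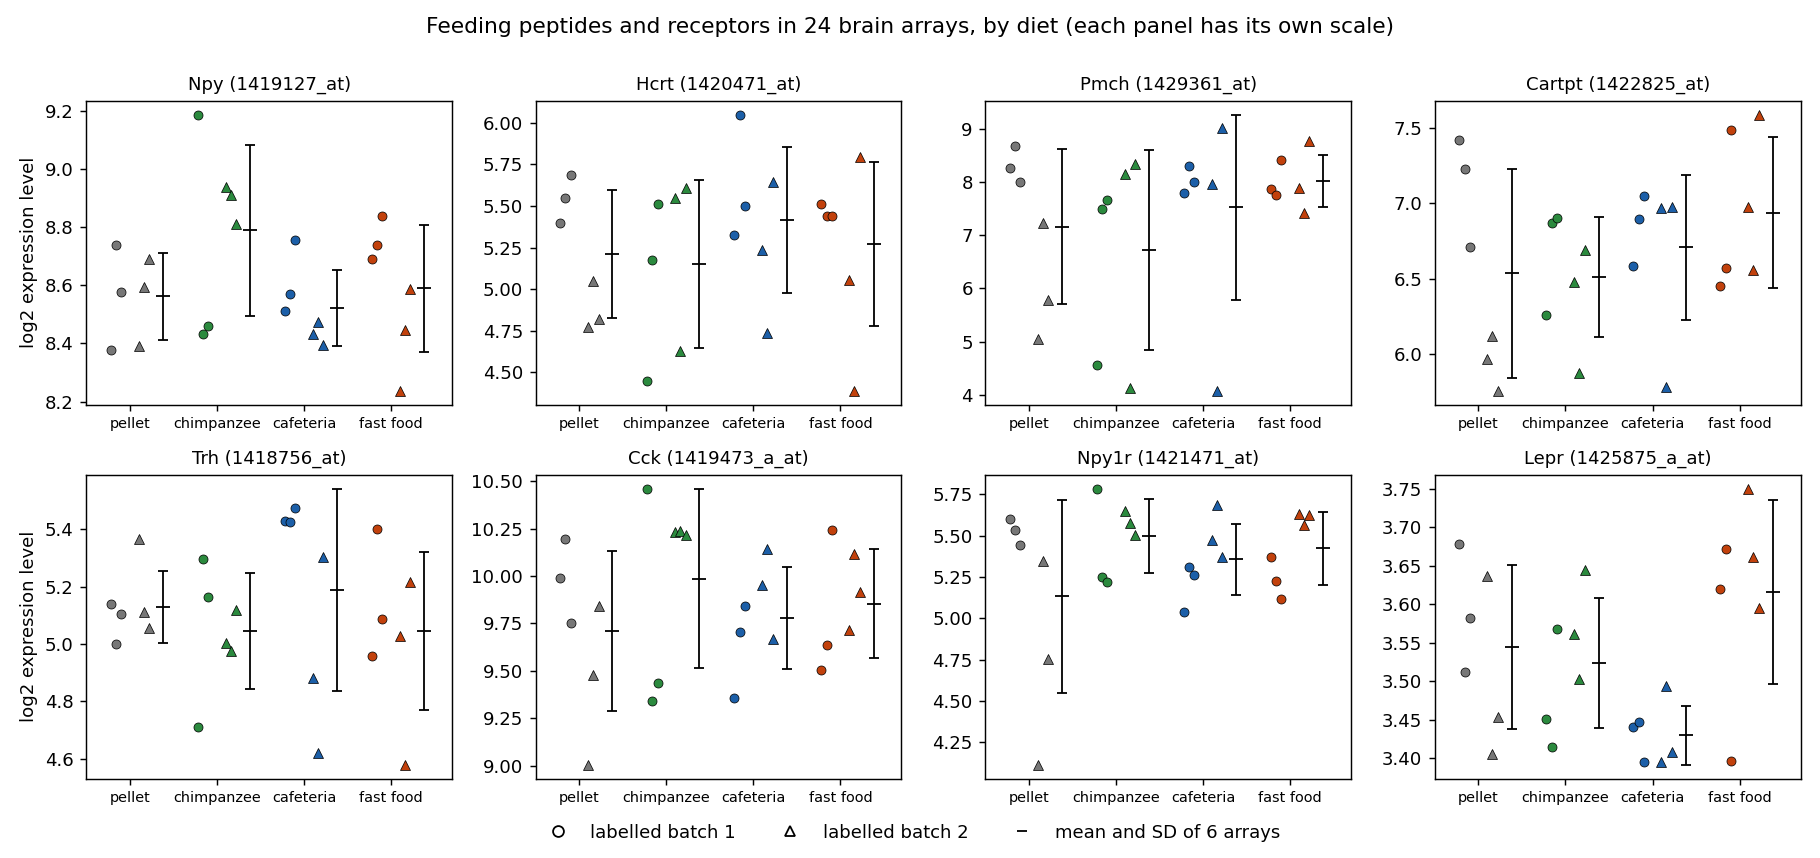
Log2 expression level (vertical axis, each panel with its own scale) of the brightest probe set of each of 8 members on the 24 arrays, by diet; circles are labelled batch 1, triangles labelled batch 2, and the bar is the mean with the SD of 6 arrays. The diets overlap in all 8 panels, and for Pmch 5 arrays lie at or below 5.77 while the other 19 lie at or above 7.23.

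Of the peptides that promote feeding, Npy (chr6:49822710-49829507), the transcript of neuropeptide Y, had the lowest unadjusted p in the comparison of human and chimpanzee diets. On the chimpanzee diet its log2 level ranged from 8.43 to 9.19 with a median of 8.86. It ranged from 8.39 to 8.76 (median 8.49) on the cafeteria diet, from 8.24 to 8.84 (median 8.64) on fast food and from 8.38 to 8.74 (median 8.59) on pellets. The diets overlapped, but 3 chimpanzee arrays lay above all 18 arrays of the other diets. The order of the means was chimpanzee (8.79 ± 0.29), fast food (8.59 ± 0.22), pellet (8.56 ± 0.15) and cafeteria (8.52 ± 0.13; SD, n = 6 each). The human diets lay below the chimpanzee diet by a log2 difference of -0.23 (SE 0.10, 95% interval -0.45 to -0.02), with an limma unadjusted p of 0.0325 and an adjusted p of 1.00.

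The Npy difference is given in each labelled batch as well, although its diet by batch interaction did not pass (limma adjusted p = 0.212). In batch 2 the 3 chimpanzee arrays (8.81 to 8.94) lay above the 6 human diet arrays (8.24 to 8.59), and the log2 difference was -0.46 (SE 0.10). In batch 1 the chimpanzee arrays were both the highest (9.19) and the 2 lowest (8.43 and 8.46) of the 9, and the difference was -0.01 (SE 0.15). The limma adjusted p was 1.00 within each batch. Without the chimpanzee array of batch 1 replicate 1 the difference over both batches was -0.16.

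Hcrt (chr11:100761693-100762931) encodes the orexins, which promote wakefulness and feeding. Its log2 level ranged from 4.45 to 5.61 (median 5.34) on the chimpanzee diet, from 4.74 to 6.05 (median 5.41) on the cafeteria diet, from 4.39 to 5.80 (median 5.44) on fast food and from 4.77 to 5.69 (median 5.22) on pellets. The 4 ranges overlapped almost entirely, and the spread within a diet exceeded the distance between diets. The human diets differed from the chimpanzee diet by 0.19 on the log2 scale (SE 0.21, 95% interval -0.24 to 0.62, limma adjusted p = 1.00). The difference was 0.50 within batch 1 and -0.12 within batch 2. It was 0.00891 without chimpanzee batch 1 replicate 1 and 0.32 without chimpanzee batch 2 replicate 3.

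Pmch (chr10:88091072-88092374), which encodes the precursor of melanin concentrating hormone, had the widest range of the members, from 4.07 to 9.02 on the log2 scale, a 30.9-fold range. Its SD within diet and batch was 1.48, and 9 of the 45037 probe sets had a larger one. The levels ranged from 4.12 to 8.34 (median 7.58) on the chimpanzee diet, from 4.07 to 9.02 (median 7.98) on the cafeteria diet, from 7.42 to 8.78 (median 7.88) on fast food and from 5.05 to 8.67 (median 7.62) on pellets. Between 5.77 and 7.23 there was no array. Below this gap lay 5 arrays: chimpanzee batch 1 replicate 1 (4.56), chimpanzee batch 2 replicate 2 (4.12), cafeteria batch 2 replicate 2 (4.07), pellet batch 2 replicate 1 (5.05) and pellet batch 2 replicate 3 (5.77). No fast food array was among them, whereas both labelled batches were.

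The order of the Pmch means was fast food (8.02 ± 0.49), cafeteria (7.53 ± 1.75), pellet (7.17 ± 1.45) and chimpanzee (6.72 ± 1.88; SD, n = 6 each). The human diets lay above the chimpanzee diet by 1.05 on the log2 scale (SE 0.69, 95% interval -0.38 to 2.48), with an limma adjusted p of 1.00. Single low arrays set much of this difference: it was 0.52 without chimpanzee batch 1 replicate 1 and 0.58 without chimpanzee batch 2 replicate 2. Within batch 1 it was 1.45 (SE 0.53) and within batch 2 it was 0.65 (SE 1.14), each with an limma adjusted p of 1.00.

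**Figure D2:**
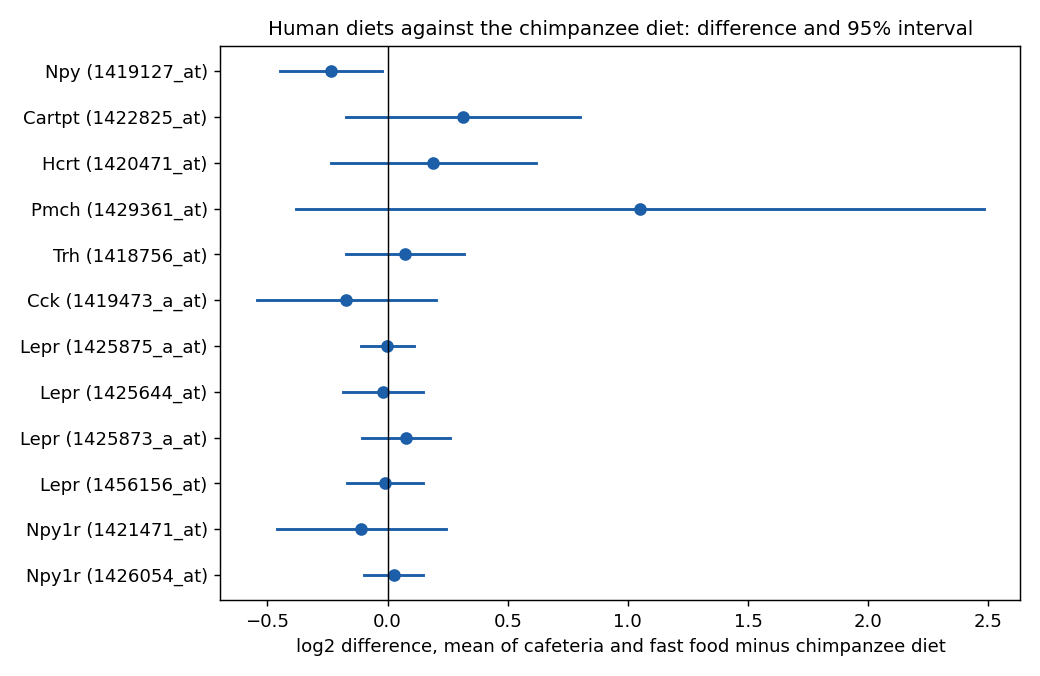
Log2 difference (horizontal axis) of the human diets, the mean of cafeteria and fast food, from the chimpanzee diet for the 12 member probe sets; points are limma estimates with batch as a term, and lines are 95% intervals. The intervals hold 0 except that of Npy (-0.45 to -0.02), and that of Pmch, from -0.38 to 2.48, is the widest.

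Of the peptides that restrain feeding, Cartpt (chr13:99898483-99910179) encodes the CART peptide. Its log2 level ranged from 5.87 to 6.90 (median 6.58) on the chimpanzee diet, from 5.77 to 7.05 (median 6.93) on the cafeteria diet, from 6.45 to 7.59 (median 6.77) on fast food and from 5.75 to 7.42 (median 6.42) on pellets. The ranges overlapped, and the 4 arrays at or below 5.97 were chimpanzee batch 2 replicate 2, cafeteria batch 2 replicate 2 and pellet batch 2 replicates 1 and 3, all of them low in Pmch as well. The human diets differed from the chimpanzee diet by 0.31 (SE 0.23, 95% interval -0.17 to 0.80, limma adjusted p = 1.00).

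Trh (chr6:92242061-92244650) encodes thyrotropin releasing hormone, which sets thyroid output through the pituitary and lowers food intake. Its log2 level ranged from 4.71 to 5.30 (median 5.06) on the chimpanzee diet, from 4.62 to 5.47 (median 5.36) on the cafeteria diet, from 4.58 to 5.40 (median 5.06) on fast food and from 5.00 to 5.37 (median 5.11) on pellets. The 3 cafeteria arrays of batch 1 (5.42 to 5.47) were the highest of all 24, and 2 of the cafeteria arrays of batch 2 were among the 4 lowest. The human diets differed from the chimpanzee diet by 0.07 (SE 0.12, 95% interval -0.17 to 0.32, limma adjusted p = 1.00). The difference was 0.24 within batch 1 and -0.09 within batch 2, and it was -0.0159 without chimpanzee batch 1 replicate 1 and 0.12 without cafeteria batch 2 replicate 2.

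Cck (chr9:121489824-121495694) encodes cholecystokinin, a satiety peptide of gut and brain. Its log2 level ranged from 9.34 to 10.46 (median 10.23) on the chimpanzee diet, from 9.36 to 10.14 (median 9.77) on the cafeteria diet, from 9.51 to 10.24 (median 9.82) on fast food and from 9.00 to 10.20 (median 9.80) on pellets. In batch 2 the 3 chimpanzee arrays (10.22 to 10.24) lay above the other 9 arrays, whereas in batch 1 the chimpanzee arrays held the highest level and 2 of the 3 lowest. The human diets differed from the chimpanzee diet by -0.17 (SE 0.18, 95% interval -0.54 to 0.20, limma adjusted p = 1.00). It was -0.0619 without chimpanzee batch 1 replicate 1 and -0.30 without chimpanzee batch 1 replicate 2.

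Lepr (chr4:101717137-101815352) encodes the leptin receptor, and the means of its 4 probe sets were 2.94, 2.97, 3.25 and 3.53, all below the median of 4.07. On the brightest of them (1425875_a_at) the log2 level ranged from 3.41 to 3.64 (median 3.53) on the chimpanzee diet, from 3.39 to 3.49 (median 3.42) on the cafeteria diet, from 3.40 to 3.75 (median 3.64) on fast food and from 3.41 to 3.68 (median 3.55) on pellets. The cafeteria arrays were the lowest on average and 5 of the 6 fast food arrays lay above all of them. Fast food lay above cafeteria by 0.19 (SE 0.06, 95% interval 0.06 to 0.31), with an limma unadjusted p of 0.00617 and an adjusted p of 1.00. The other 3 Lepr probe sets differed between these diets by 0.03 (1425873_a_at, SE 0.10), 0.04 (1425644_at, SE 0.09) and 0.01 (1456156_at, SE 0.09).

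The test of 4 diets on this probe set had an limma unadjusted p of 0.0466 and an adjusted p of 0.729, and the methods' two-way test gave an unadjusted p of 0.0197. Lepr 1425873_a_at was higher on pellets than on the chimpanzee diet by 0.23 (SE 0.10), with an limma unadjusted p of 0.0343 and an adjusted p of 0.48. Its highest levels were the pellet arrays of batch 2 replicate 1 (3.79) and replicate 3 (3.57), and the other arrays lay at or below 3.47.

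Npy1r (chr8:66697149-66706800) encodes a receptor of neuropeptide Y. On its brighter probe set (1421471_at) the log2 level ranged from 5.22 to 5.78 (median 5.54) on the chimpanzee diet, from 5.04 to 5.68 (median 5.34) on the cafeteria diet, from 5.12 to 5.63 (median 5.47) on fast food and from 4.11 to 5.60 (median 5.39) on pellets. The pellet arrays of batch 2 replicate 1 (4.11) and replicate 3 (4.75) lay below all others. The human diets differed from the chimpanzee diet by -0.11 (SE 0.17, 95% interval -0.46 to 0.24, limma adjusted p = 1.00), and by -0.0471 without chimpanzee batch 1 replicate 1. The dimmer probe set (1426054_at) lay between 2.79 and 3.26 on all arrays and differed between these diets by 0.03 (SE 0.06).

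The labelled batches were then compared, batch 2 minus batch 1, over the 18 arrays of the 3 diets other than pellets. Of the 12 member probe sets 2 passed, 1 upward and 1 downward, where 32.9% of all probe sets passed. Npy1r (1421471_at) was higher in batch 2, at 5.37 to 5.68 (median 5.58, n = 9) against 5.04 to 5.78 (median 5.25, n = 9) in batch 1. The overlap came from chimpanzee batch 1 replicate 1 (5.78) alone, since the other 8 arrays of batch 1 did not exceed 5.37. The log2 difference was 0.28 (SE 0.07, 95% interval 0.12 to 0.43, limma adjusted p = 0.00663). Lepr (1425873_a_at) was lower in batch 2, at 2.95 to 3.23 (median 3.10) against 3.14 to 3.47 (median 3.33), a log2 difference of -0.21 (SE 0.05, 95% interval -0.32 to -0.10, limma adjusted p = 0.00479). The remaining Lepr probe sets ran the other way and did not pass. They differed by 0.16 (1425644_at), 0.12 (1456156_at) and 0.07 (1425875_a_at), with limma adjusted p of 0.0574, 0.0898 and 0.28. The peptides did not pass: Trh differed by -0.25 (limma adjusted p = 0.0903), Cck by 0.30 (adjusted p = 0.0996), and Npy, Cartpt, Hcrt and Pmch had adjusted p-values from 0.425 to 0.809. With quantile normalization applied to the arrays again, Npy1r missed the threshold (0.17, limma adjusted p = 0.0543), Lepr (1425873_a_at) kept its call, Npy passed with a lower level in batch 2 (-0.46, adjusted p = 0.000166) and the difference of Cck turned to -0.16. Trh then passed as well (-0.31, limma adjusted p = 0.0365). So did Lepr 1425644_at (0.20, limma adjusted p = 0.0211) and 1456156_at (0.16, adjusted p = 0.0306), in the direction opposite to 1425873_a_at.

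On the pellet arrays Npy1r ran against this order, at 5.44 to 5.60 in pellet batch 1 and at 4.11 to 5.35 in pellet batch 2. Lepr (1425873_a_at) overlapped there, at 3.23 to 3.35 in batch 1 and at 3.14, 3.57 and 3.79 in batch 2, the last on the array that stood apart, and its interaction did not pass (limma adjusted p = 0.097). In the test of the diet by batch interaction 1 of the 12 members passed, Npy1r (1421471_at, limma adjusted p = 0.0127), where 31.5% of all probe sets passed. Without the pellet array that stood apart its limma adjusted p was 0.0233, and with batches 1 and 2 exchanged on the pellet arrays it was 0.785. With quantile normalization applied again it was 0.0775. Neuron markers moved with the batches as well: 10 of 10 were higher in batch 2 by the fitted difference over the 18 arrays and 8 of them passed, with a median log2 difference of 0.61. The part of neuronal content, RNA quality or labelling in the batch result was not tested.

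**Figure D3:**
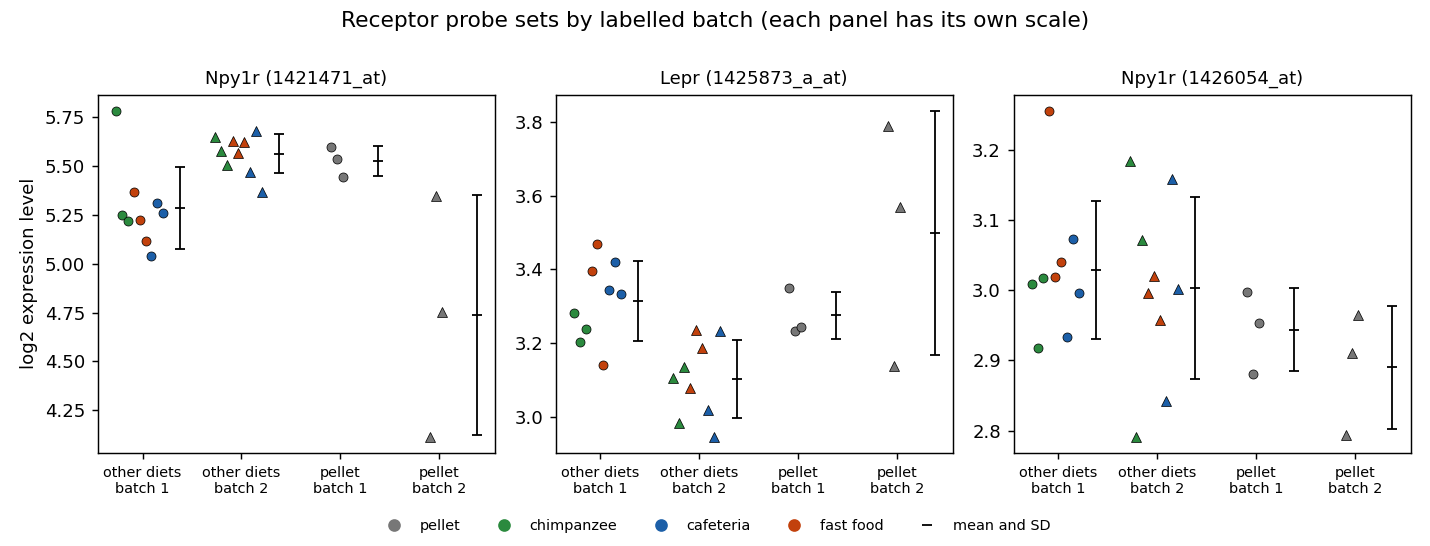
Log2 expression level (vertical axes, each panel with its own scale) of 3 receptor probe sets by labelled batch, with the arrays of the chimpanzee, cafeteria and fast food diets (n = 9 per batch) beside the pellet arrays (n = 3 per batch); bars are means with SD. Npy1r 1421471_at is higher in batch 2 on the other diets and lower in batch 2 on pellets. The Lepr panel shows 1425873_a_at, and on the other diets the remaining Lepr probe sets differ between batches in the opposite direction.

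Within labelled batch 2 alone, where 3 arrays of each diet remained, 2 of 12 members passed the limma test of 4 diets, Npy (adjusted p = 0.0351) and Npy1r (1421471_at, adjusted p = 0.0485), where 20.6% of all probe sets passed. In the pairs of diets within this batch, the 7 member calls were all against pellets. They rest on 3 pellet arrays, which include the array that stood apart and had 18S levels (5.92 to 6.42) like those of batch 1 of the other diets; the part of these 2 facts in the calls was not tested beyond the values that follow. Against the chimpanzee diet the pellet arrays of batch 2 were lower in Npy (-0.33), Cck (-0.79) and Npy1r (-0.84), with 3 of 12 members passed and 27.4% of all probe sets. Against cafeteria they were lower in Npy1r (-0.77), with 1 of 12 passed and 27.7% of all. Against fast food they were lower in Cartpt (-1.10), Lepr 1425644_at (-0.32) and Npy1r (-0.87), with 3 of 12 passed and 40% of all. Without the array that stood apart, which leaves 2 pellet arrays in this batch, a fit chosen after seeing the data, Npy passed the test of 4 diets (limma adjusted p = 0.0111) and Npy1r did not (adjusted p = 0.0572), where 20.6% of all probe sets passed. Against chimpanzee 2 of 12 members then passed (21.4% of all), Cck (-0.57) and Npy1r (-0.53), and Npy did not (-0.24, limma adjusted p = 0.127). Against cafeteria 1 passed (22% of all), Npy1r (-0.46), and against fast food 3 passed (31.4% of all), Cartpt (-1.11), Lepr 1425644_at (-0.36) and Npy1r (-0.56). No member passed in labelled batch 1 alone.

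Since Pmch, Cartpt and Hcrt ranged widely between arrays of the same diet, the pattern from array to array was examined next. With the mean of each diet and batch removed, 28 pairs of members were correlated over the 24 arrays with 100000 permutations within diet and batch, two-sided, a test chosen after the levels were seen. Of these, 4 pairs passed at an adjusted p under 0.05 and all 4 were positive. Hcrt and Pmch had r = 0.80 (rho = 0.79, permutation p = 0.00023, adjusted p = 0.00336), and Cartpt and Pmch had r = 0.78 (rho = 0.84, permutation p = 0.00024, adjusted p = 0.00336). Cartpt and Hcrt had r = 0.68 (rho = 0.62, permutation p = 0.00391, adjusted p = 0.0274). Npy and Cck had r = 0.82 (rho = 0.77, permutation p = 0.00096, adjusted p = 0.00896).

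The pairs were also taken over the 19 arrays above the gap in Pmch, a subset cut on the level of one of these genes. There Hcrt and Pmch had r = 0.76 (rho = 0.64, permutation p = 0.026), Cartpt and Pmch had r = 0.73 (rho = 0.82, permutation p = 0.00676), Cartpt and Hcrt had r = 0.45 (rho = 0.31, permutation p = 0.215) and Npy and Cck had r = 0.57 (rho = 0.66, permutation p = 0.045). No pair passed after adjustment over the 28 (adjusted permutation p of 0.242, 0.0946, 0.593 and 0.315). Without the 2 arrays farthest from the median of the first gene of each pair r was 0.88 for Hcrt and Pmch, 0.76 for Cartpt and Pmch, 0.72 for Cartpt and Hcrt and 0.70 for Npy and Cck. Without removal of diet and batch means, Hcrt and Pmch had r = 0.86 in batch 1 and 0.75 in batch 2, Cartpt and Pmch 0.66 and 0.86, Cartpt and Hcrt 0.39 and 0.70, and Npy and Cck 0.71 and 0.56. Without the pellet array that stood apart all 4 pairs passed (adjusted permutation p from 0.0014 to 0.0281), and Hcrt with Trh and Pmch with Trh passed too (adjusted permutation p of 0.0345 and 0.0346).

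Vasopressin (Avp) and oxytocin (Oxt), peptides of the magnocellular hypothalamus, were low on the same arrays. On the 5 arrays at or below 5.77 in Pmch, Avp lay at 4.67 to 6.14 and Oxt at 5.08 to 6.39. Of the other 19 arrays, 18 had Avp at or above 6.89 and Oxt at or above 6.46, and fast food batch 2 replicate 2 had 5.41 and 5.49. That array also had the lowest Hcrt of all (4.39), whereas its Pmch was 7.42. Chimpanzee batch 1 replicate 1, low in Pmch and Hcrt (4.45), had the highest Npy (9.19), Cck (10.46) and Npy1r (5.78) of the 24 arrays.

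**Figure D4:**
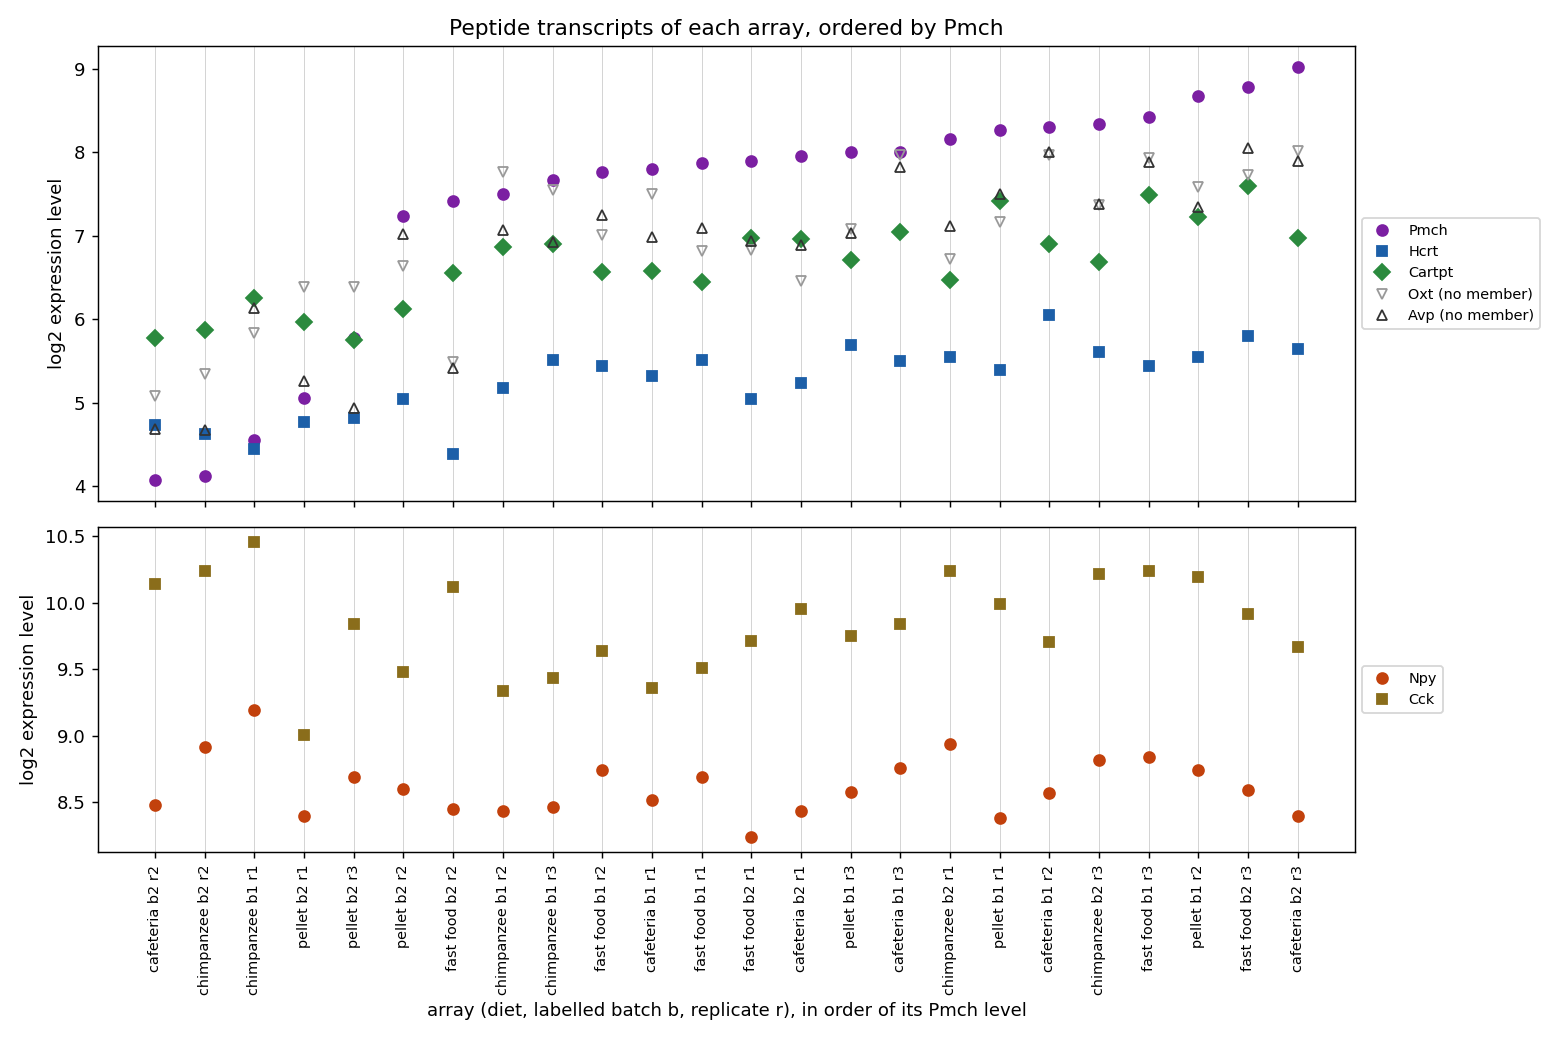
Log2 expression level (vertical axes) of members and of Oxt and Avp on each of the 24 arrays, which are ordered from left to right by their Pmch level. The 5 arrays on the left are low in Pmch, Avp and Oxt, and the highest Npy and Cck levels (9.19 and 10.46) are on chimpanzee batch 1 replicate 1, the third from the left.

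The transcripts most like each member over the 24 arrays were taken by Pearson's r among 19802 probe sets of 1 gene at or above the median level, as a description without a test, since they were chosen for their likeness and share the arrays, diets and batches. Pmch was most like Avp (0.88), Baiap3 (0.85) and Gpx3 (0.84), and Hcrt most like Avp (0.85), Oxt (0.84) and Pmch (0.80). Cartpt was most like Baiap3 (0.89), Dlk1 (0.87) and Ddc (0.87), the last an enzyme of dopamine and serotonin synthesis. Trh was most like Gal, which encodes galanin (0.76), Oxt (0.75) and Tnfrsf1a (0.70). Cck was most like Hpca, a calcium sensor of the hippocampus (0.97), C1qtnf4 (0.96) and Kctd17 (0.96). Npy was most like Crtc1 (0.91), Palm (0.87) and Rph3a (0.85). Npy1r was most like Hecw1 (0.97), Rlf (0.96) and Nr3c2, the mineralocorticoid receptor (0.96), and Lepr most like Cdh6 (0.72), Lpp (0.68) and Kcna3 (0.67).

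The members were then set against regional markers, each list summarised per array as the mean of centred log2 levels: 12 probe sets of 11 hypothalamus genes, 21 of 13 cortex and hippocampus genes, 18 of 10 striatum genes and 15 of 9 choroid plexus genes, with members left out. The hypothalamus list included Oxt, Avp, Baiap3 and Gal, which are named above for their likeness to members on the same arrays. Its relations with those members are therefore not separate from the values above. Of 32 relations with the diet and batch means removed, 10 passed at an adjusted p under 0.05 by two-sided permutation within diet and batch. The hypothalamus level went with Cartpt (r = 0.70, rho = 0.66, permutation p = 0.0077, adjusted p = 0.037), Pmch (r = 0.66, rho = 0.59, permutation p = 0.00547, adjusted p = 0.035) and Trh (r = 0.61, rho = 0.53, permutation p = 0.0153, adjusted p = 0.0488). Hcrt had r = 0.56 and an adjusted permutation p of 0.0878. With Pomc, which is also a pituitary transcript, left out of the list, an alternative chosen after seeing the data, r was 0.89 for Cartpt, 0.84 for Pmch, 0.84 for Hcrt and 0.73 for Trh, and all 4 passed (adjusted permutation p from 0.0016 to 0.0233).

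These hypothalamic relations were uneven. Without the 2 arrays farthest from the median marker level r was 0.77 for Cartpt, 0.66 for Pmch and 0.60 for Trh. Without removal of diet and batch means r was 0.15 in batch 1 and 0.77 in batch 2 for Cartpt, 0.23 and 0.80 for Pmch, and 0.54 and 0.72 for Trh. Over the 19 arrays above the gap in Pmch its r with the hypothalamus level was 0.57 (rho = 0.52, permutation p = 0.075, adjusted p = 0.15 over 4 lists). The hypothalamus level ranged from -0.68 to 0.31 on the chimpanzee diet, -0.68 to 1.04 on cafeteria, -0.50 to 0.42 on fast food and -0.38 to 0.15 on pellets. The value of 1.04 was on cafeteria batch 1 replicate 1, the array with the highest Prl and Pomc, and Pomc is in this list. With the hypothalamus level as a covariate, also chosen after seeing the data, the log2 difference of the human diets from the chimpanzee diet was 0.55 for Pmch, 0.07 for Hcrt and 0.16 for Cartpt, and -0.22 for Npy. The part of how much hypothalamus each sample held was not tested beyond these values.

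The cortex and hippocampus level went with Cck (r = 0.81, rho = 0.75, permutation p = 0.00071, adjusted p = 0.0114), Npy (r = 0.79, rho = 0.62, permutation p = 0.0118, adjusted p = 0.0472) and Npy1r (r = 0.69, rho = 0.58, permutation p = 0.00809, adjusted p = 0.037), and ran against Trh (r = -0.77, rho = -0.82, permutation p = 0.00022, adjusted p = 0.00704) and Hcrt (r = -0.62, rho = -0.59, permutation p = 0.0146, adjusted p = 0.0488). Without the 2 arrays farthest from the median r was 0.71, 0.67, 0.69, -0.69 and -0.46 in that order. Without removal of diet and batch means r in batch 1 and batch 2 was 0.84 and 0.90 for Cck, 0.90 and 0.45 for Npy, 0.71 and 0.83 for Npy1r, -0.73 and -0.63 for Trh, and -0.59 and -0.09 for Hcrt. This marker level was highest on chimpanzee batch 1 replicate 1 (0.46), the array with the highest Npy and Cck. It ranged from -0.22 to 0.46 on the chimpanzee diet, -0.13 to 0.18 on cafeteria, -0.06 to 0.21 on fast food and -0.52 to 0.11 on pellets. Without the pellet array that stood apart Npy, Npy1r and, with the hypothalamus level, Trh no longer passed (adjusted permutation p of 0.0913, 0.073 and 0.073), while their r was 0.78, 0.64 and 0.61. Off pellets in batch 1, Cck was 9.34 at an array SD of 1.81, and 10.24 and 10.46 at 2.02. In batch 2 the array SD was 2.01 to 2.06 and Cck 9.67 to 10.24. The part of array SD in these relations, in the pair of Npy and Cck and in the choroid plexus relation of Cck was not tested.

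Cck also went with the choroid plexus level (r = 0.70, rho = 0.74, permutation p = 0.00328, adjusted p = 0.0295; 0.68 in batch 1 and 0.73 in batch 2), and r was 0.63 without the 2 farthest arrays. With 1 probe set per marker gene this relation missed the threshold (r = 0.52, adjusted permutation p = 0.086), as did Hcrt with the cortex and hippocampus level (r = -0.57, adjusted permutation p = 0.0511). Lepr ran against the striatum level (r = -0.63, rho = -0.61, permutation p = 0.00369, adjusted p = 0.0295; -0.59 without the 2 farthest arrays), but the relation did not hold without removal of diet and batch means, where r was 0.04 over all arrays, 0.06 in batch 1 and 0.03 in batch 2.

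**Figure D5:**
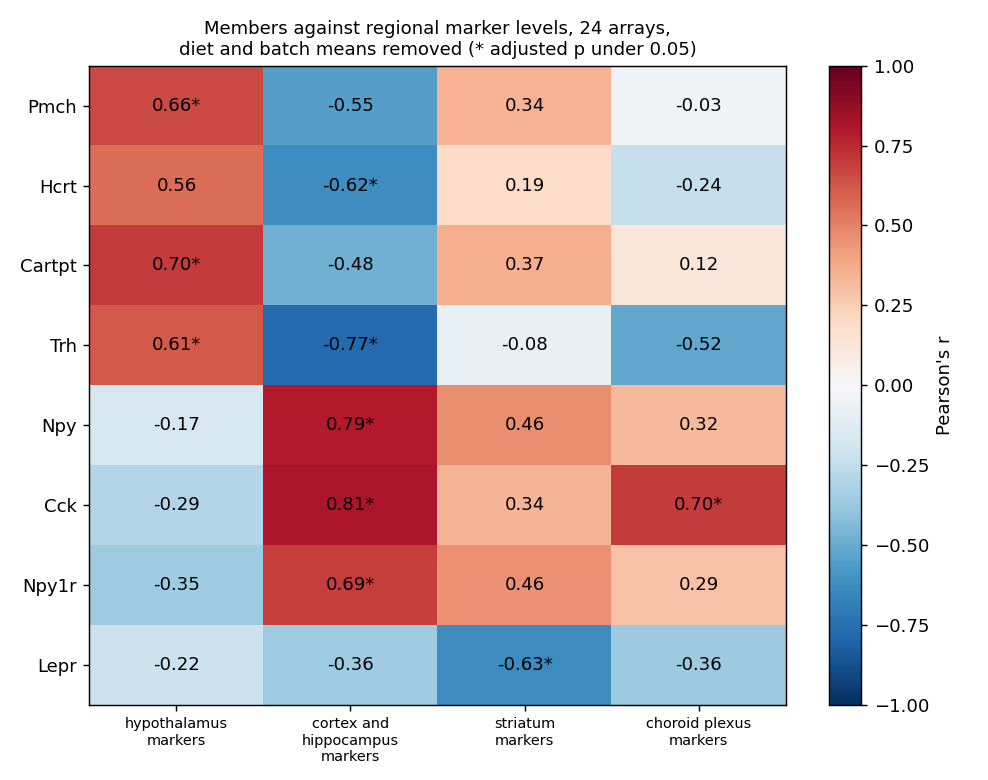
Pearson's r (colour, from -1 to 1) of 8 members (vertical axis) with the level of 4 lists of regional markers (horizontal axis) over 24 arrays with diet and batch means removed; stars mark the 10 relations with an adjusted permutation p under 0.05. Pmch, Hcrt, Cartpt and Trh have positive r with the hypothalamus level (0.56 to 0.70), and Npy, Cck and Npy1r with the cortex and hippocampus level (0.69 to 0.81).

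Other genes of the feeding pathway were counted in the same fit, each by its brightest probe set. Of 24 other feeding peptides 21 were measured, of 24 other feeding receptors 24, of 16 enzymes of peptide processing 15, and of 15 genes of leptin signalling 13. In the comparison of the human with the chimpanzee diet 0 passed in each list, where 0% of all probe sets passed. The medians of their log2 differences were 0.04, 0.01, 0.06 and -0.01, against 0.04 for the 8 members and 0.01 for all probe sets. In the test of 4 diets 0 passed in each list as well, and the lowest limma unadjusted p belonged to Bdnf, a growth factor that restrains feeding (0.00895), Npy5r, another receptor of neuropeptide Y (0.0315), Pam, the enzyme that amidates peptides (0.00145), and Jak2, the kinase bound to the leptin receptor (0.0208), each chosen after its values were seen.

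Between the labelled batches 4 of the 21 other feeding peptides passed, 2 upward (Nucb2 by 0.22, Penk by 0.36) and 2 downward (Npb by -0.20, Nmu by -0.22), against 32.9% of all probe sets. Of the receptors 8 of 24 passed, 4 in each direction, among them Ntrk2, the receptor of Bdnf (0.59), Npy2r (0.24), Trhr2 (-0.41) and Nmur2 (-0.18). Of the processing enzymes 7 of 15 passed, all upward, among them Cpe, a carboxypeptidase that trims peptide precursors (0.82), and Scg5, a partner of the convertase Pcsk2 (0.66). Of leptin signalling 7 of 13 passed, 4 upward (Pik3r1 by 0.50, Stat3 by 0.25, Ptpn11 by 0.45 among them) and 3 downward, with Socs3, an inhibitor induced by leptin, at -0.31.

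Markers of regions and other cell types were counted beside them. In the comparison of the human with the chimpanzee diet 0 genes of any of these lists passed. The fitted difference was positive for 21 of 23 hypothalamus genes (median 0.08), 13 of 15 thalamus genes (0.41), 12 of 12 choroid plexus genes (0.18), 13 of 16 meninges and vessel genes (0.09), 6 of 7 pituitary hormones (0.25), 9 of 17 cortical interneuron genes (0.02), 4 of 10 striatum genes (-0.02), 3 of 10 olfactory bulb genes (-0.02), 3 of 10 neuron markers (-0.04) and 2 of 13 cortex and hippocampus genes (-0.14), beside 23943 of 45037 probe sets with a median of 0.01. Against the chimpanzee diet, the count for hypothalamus genes was 21 of 23 on cafeteria (median 0.08) and 12 of 23 on fast food (0.00218). For pituitary hormones it was 6 of 7 (0.58) and 4 of 7 (0.11). Choroid plexus genes had 12 of 12 on each, and thalamus genes 12 and 14 of 15. Olfactory bulb genes had 1 and 8 of 10, neuron markers 2 and 7 of 10, striatum genes 2 and 6 of 10, and cortical interneuron genes 6 and 13 of 17. Between the labelled batches, where 32.9% of all probe sets passed, 4 of 23 hypothalamus genes passed, all downward, with Hdc, the histamine-forming enzyme, at -0.34 and Magel2 at -0.34. Those that passed numbered 7 of 17 cortical interneuron genes (5 upward, Gad1 by 0.52), 3 of 13 cortex and hippocampus genes (2 upward, Lamp5 by 0.62), 4 of 10 striatum genes (all upward, Pde10a by 0.63), 3 of 15 thalamus genes (all upward, Cplx1 by 0.58), 5 of 12 choroid plexus genes (all upward, Ttr by 0.81), 6 of 16 meninges and vessel genes (5 upward, Rgs5 by 0.51), 2 of 10 olfactory bulb genes (1 upward, Synpr by 0.68) and 0 of 7 pituitary hormones, 3 of which had an unadjusted p under 0.05 by the same limma fit.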

How the data were processed

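RNA of the right cerebral hemisphere of 24 mice was hybridized to Affymetrix mouse genome arrays, 1 per mouse. The study's methods state that rma from the R package affy, which includes quantile normalization, summarised each probe set, and log2 levels were deposited. The spread of these levels was not equal between arrays, with an SD from 1.58 to 2.06. Whether the deposited levels of all 24 arrays were normalized together was not tested. Log2 levels of different probe sets are not comparable. Precision is limited by how many arrays there were, and no detection p-values were used here. Of 45101 probe sets 64 controls were left out and 45037 were tested without a filter, so that all 12 member probe sets were tested. The platform annotation gives 34945 of these 1 gene, 932 several and 9160 none.

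Diets were compared in limma 3.58.1 (R 4.3.3) with diet and batch as terms on all 24 arrays, batches on the 18 arrays without pellets, and a diet by batch interaction on all arrays, each with Benjamini-Hochberg adjustment over all probe sets at a threshold of 0.05. The study's methods exclude 1 pellet array that they do not name, so none was left out. The fits were tested on simulated data with independent normal noise, a batch shift shared by all diets and a set change on the human diets. The simulation held no diet by batch interaction and no difference in spread between arrays. It therefore cannot tell how the fits behave with these features of the data. Relations between members and marker lists used residuals from diet and batch means and 100000 permutations within diet and batch. The named genes were all members, the 3 probe sets most correlated with each, and in 14 other lists (210 genes, 197 with a probe set) up to 4 called genes or else the gene with the lowest F test p; other named genes are marked as such. Those lists were other feeding peptides, other feeding receptors, peptide processing enzymes, leptin signalling, pituitary hormones, and markers of hypothalamus, cortical interneurons, cortex and hippocampus, striatum, thalamus, choroid plexus, meninges and vessels, olfactory bulb and neurons. Members and lists were chosen with earlier results of these data known. Alternatives were a filter at the median level, 1 probe set per gene, 2 further normalizations, other spread estimates, array weights, other batch terms, each batch alone, a replicate block, exchanged pellet labels, arrays left out in turn and the methods' two-way test. Correlations between members, those over 19 arrays, the hypothalamus covariate, the marker list without Pomc, batch 2 without 1 pellet array and the removal of single arrays from correlations were chosen after seeing the data. Same-numbered arrays of different diets did not deviate together (36 pairs within a batch, 12 with a correlation over 0.1, median -0.03), so the replicate numbers were not taken as pairs. Promoters came from RefSeq, GRCm38.p6, searched with Python 3.11.15; figures were drawn with matplotlib 3.10.9.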

Additional observations from a re-analysis of the deposited data

Results flagged for a closer look

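In the cafeteria group, the array of batch 2 replicate 2 lay far below the other 5 for Pmch, at a log2 level of 4.07 with the nearest array at 7.80. The same array lay below the others for Cartpt, at 5.77 with the nearest at 6.58. For the dimmer Npy1r probe set (1426054_at) the fast food array of batch 1 replicate 1, at 3.26, lay above the other 5, of which the nearest was at 3.04. The gap test behind these 3 was applied to 48 groups of 6 arrays, and chance gives about 1 in 20.

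The diet effects on Npy1r (1421471_at) differed between the labelled batches by the limma interaction test (adjusted p = 0.0127), which 31.5% of all probe sets passed. With batches 1 and 2 exchanged on the pellet arrays its limma adjusted p was 0.785, and 0 of all probe sets passed. On the chimpanzee, cafeteria and fast food diets the mean was higher in batch 2, and on pellets it was lower in batch 2.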

How the results depend on the processing

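No member probe set passed in a diet comparison over both batches under any alternative. In labelled batch 2 alone 2 member probe sets passed in the test of 4 diets and 7 calls were made in the 6 pairs, all against pellets; without the pellet array that stood apart these were 1 and 6. The number of members called between batches (2) was 1 with a filter at the median level, with or without 1 probe set per gene. Only 7 of the 12 member probe sets lay at or above that level. The called Lepr probe set (mean log2 level 3.25) did not, so it was left out by the filter and did not lose its call in a test. The number was 5 with quantile normalization applied again and 6 with array weights. With 1 array left out it was 2 to 5, where 12930 to 17079 of all probe sets passed. The shares of all probe sets called between batches under quantile normalization again and array weights are not given here. Without chimpanzee batch 1 replicate 1 Trh (limma adjusted p = 0.017), Cck (0.0141) and Lepr 1425644_at (0.0383) passed too. The number with an interaction (1) was 3 with arrays centred on the median, 4 with quantile normalization again, 3 with trend and robust spread, 8 with array weights, 0 with pellet batch labels exchanged, and 1 to 3 with 1 array left out.

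With the replicate block, 0 members and 0 probe sets passed in the test of 4 diets and 7 probe sets in the pairs, and it changed no call of a member. Over all probe sets, the test of 4 diets (10) called 6 with the filter and 1 probe set per gene, 6 with centring, 4 with quantile normalization again, 5 with trend and robust spread, 20 with array weights, 2 without a batch term, 572 and 9295 in batch 1 and batch 2 alone (9275 without that array), 23 with exchanged labels, 1 by the methods' two-way test, 4 with the hypothalamus covariate and 1 to 12 with 1 array left out. The human against chimpanzee comparison (0) called 1 with quantile normalization again, 8 with array weights, 5 with pellet arrays left out of the fit, 11 in batch 1 alone, 2 with exchanged labels and 0 to 3 with 1 array left out. The pairs called 6 with the filter and 1 probe set per gene, 43 with array weights, 5 without a batch term, 0 with only the arrays compared, 2816 and 42811 in batch 1 and batch 2 alone (33690 without that array), 1343 with exchanged labels and 5 to 16 with 1 array left out. With the filter and 1 probe set per gene the batch test called 6880 and the interaction test 7017, and the latter called 7238 with quantile normalization again, 30548 with array weights, 0 with exchanged labels and 8222 to 21841 with 1 array left out. The causes were not tested.

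Some directions turned. With quantile normalization again the batch difference of Cck was -0.16 and that of Npy1r (1426054_at) 0.0126. The human against chimpanzee difference of Lepr was 0.02 in batch 1 alone, those of Hcrt and Trh were -0.12 and -0.0946 in batch 2 alone with or without that array, and with the hypothalamus covariate those of Trh and Lepr were -0.0150 and 0.00657. With 1 array left out, the difference between human and chimpanzee diets ranged from -0.0208 to 0.0219 for Lepr and from -0.0159 to 0.12 for Trh, and that between batches from -0.56 to 0.24 for Pmch and from -0.0547 to 0.00161 for Npy1r (1426054_at). Of 32 correlations with marker levels, 10 passed, and 3, 5, 2 and 5 passed without the pellet, chimpanzee, cafeteria or fast food arrays. Signs turned for Pmch with choroid plexus (0.0333 with 1 probe set per marker, 0.0389 without chimpanzee and 0.0127 without cafeteria arrays), Trh with striatum (0.0313 without pellet and 0.10 without chimpanzee arrays, and from -0.0842 to 0.00932 without cafeteria batch 1 replicate 1 or pellet batch 2 replicate 1), Hcrt and Pmch with striatum (-0.13 and -0.0323 without cafeteria arrays), Lepr with hypothalamus (0.0411 without fast food arrays) and Npy1r with choroid plexus (-0.10 and 0.27 without pellet batch 2 replicate 1 or cafeteria batch 1 replicate 1). Low levels limit Lepr and Npy1r (1426054_at), which lay below the median of all probe sets.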
